A study of Mus musculus with 33 samples.

Results

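Ribose methylation of ribosomal RNA was compared between 5 adult mouse tissues, brain, liver, lung, heart and kidney, each with 3 libraries. These 15 libraries were taken from 33 by their labels, and all 108 sites that the authors listed as methylated were read in each of them. The other 18 libraries, used here for the spread between replicates and for a comparison of levels, came from the same 5 tissues of embryos at day E16.5 and from whole heads at day E9.5. RNA was extracted from whole tissue, so a score is an average over all cells of the organ. The labels used here give no strain, age or sex for the adults and no treatment. Only rRNA was counted, so the tissue labels could not be checked against marker genes.

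A methyl group on the 2' oxygen of the ribose is placed on rRNA by fibrillarin, the methyltransferase of the box C/D snoRNPs, while the pre-rRNA is still being processed in the nucleolus. Each box C/D snoRNA pairs with a stretch of rRNA and so fixes the nucleotide that is methylated. Most such sites carry the mark on nearly all ribosomes, whereas a smaller number are methylated on part of the ribosomes, and these lend themselves to differences between tissues. RiboMeth-seq reads the mark as missing cleavage: alkali cuts poorly next to a methylated ribose, so few read ends fall there. The score is 1 minus the read ends at a nucleotide over those of its neighbours, and runs from 0, no protection measured, to 1, full protection.

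The sequences that carry the results are 21-nucleotide windows of mouse rRNA, as given in the deposited tables, with the methylated nucleotide in the middle in capitals. Sites are named as in those tables, by position in human rRNA, with SSU for 18S and LSU for 28S. The first 7 are the sites whose adult mean was under 0.75, in order of level.
LSU-Gm4593 (mouse 28S position 4276): cgcagguucaGacauuuggug
SSU-Gm436 (mouse 18S position 438): auuccggagaGggagccugag
SSU-Cm1272 (mouse 18S position 1274): cucacccggcCcggacacgga
LSU-Um3904 (mouse 28S position 3584): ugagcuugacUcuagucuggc
SSU-Am576 (mouse 18S position 578): uccacuuuaaAuccuuuaacg
LSU-Cm1868 (mouse 28S position 1684): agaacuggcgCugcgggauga
SSU-Cm462 (mouse 18S position 464): gcuaccacauCcaaggaaggc
The other 5 are nearly fully methylated sites at which a test between adult tissues made a call.
LSU-Cm2848 (mouse 28S position 2619): gucggcaagcCggauccguaa
LSU-Um4468 (mouse 28S position 4151): agcguuggauUguucacccac
LSU-Um3797 (mouse 28S position 3477): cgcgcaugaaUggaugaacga
SSU-Um172 (mouse 18S position 172): cuagagcuaaUacaugccgac
SSU-Am159 (mouse 18S position 159): aacugugguaAuucuagagcu

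The adult libraries held from 1499369 to 35156406 read ends on rRNA, the fewest in the third heart and the most in the third lung library. Of the 108 sites, 107 had a mean count of at least 10 over the neighbouring nucleotides in every library of the series and were tested. LSU-Cm3848 was not tested. The libraries stood apart in 2 respects that touch every comparison below. First, the median score over sites was lower in lung, at 0.928 to 0.938, than in heart (0.948 to 0.956), kidney (0.95 to 0.954), liver (0.962 to 0.971) and brain (0.970 to 0.972). Second, the sites at which the authors applied a barcode correction divide the adult tissues into 3 sets of libraries, with brain and liver in the first, lung and kidney in the second and heart in the third. The labels name no batch, and these sets are inferred from the authors' corrections. Of the 10 pairs of tissues, brain and liver were closest, with a median absolute difference of 0.00678 over the sites, and lung and kidney came next with 0.0164. The other 8 pairs, each across sets, lay between 0.0218 and 0.0339. Tissue and library set therefore cannot be told apart in any comparison across sets, and heart has no adult partner in its own set.

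Adult rRNA was nearly fully methylated at most listed sites. With the 5 tissues weighted equally, 86 of the 108 sites had a mean score of 0.9 or more, 15 lay between 0.75 and 0.9, 6 between 0.25 and 0.75, and 1 below 0.25. These classes were set by the score itself and describe it. The partly methylated class between 0.25 and 0.75 held SSU-Gm436 at 0.50, SSU-Cm1272 at 0.684, LSU-Um3904 at 0.699, SSU-Am576 at 0.710, LSU-Cm1868 at 0.711 and SSU-Cm462 at 0.721. Just above the bound of 0.75 came LSU-Gm4020 at 0.755 and LSU-Am4560 at 0.756. At the bound of 0.9, LSU-Cm3848 at 0.888 and LSU-Gm4588 at 0.896 lay just inside, and SSU-Am668 at 0.901 and LSU-Cm3820 at 0.903 just outside. Partly methylated sites were 4 of 40 in 18S rRNA, 2 of 66 in 28S rRNA and 0 of 2 in 5.8S rRNA. By nucleotide they comprised 3 of 23 C, 1 of 33 A, 1 of 32 G and 1 of 20 U.

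**Figure D1:**
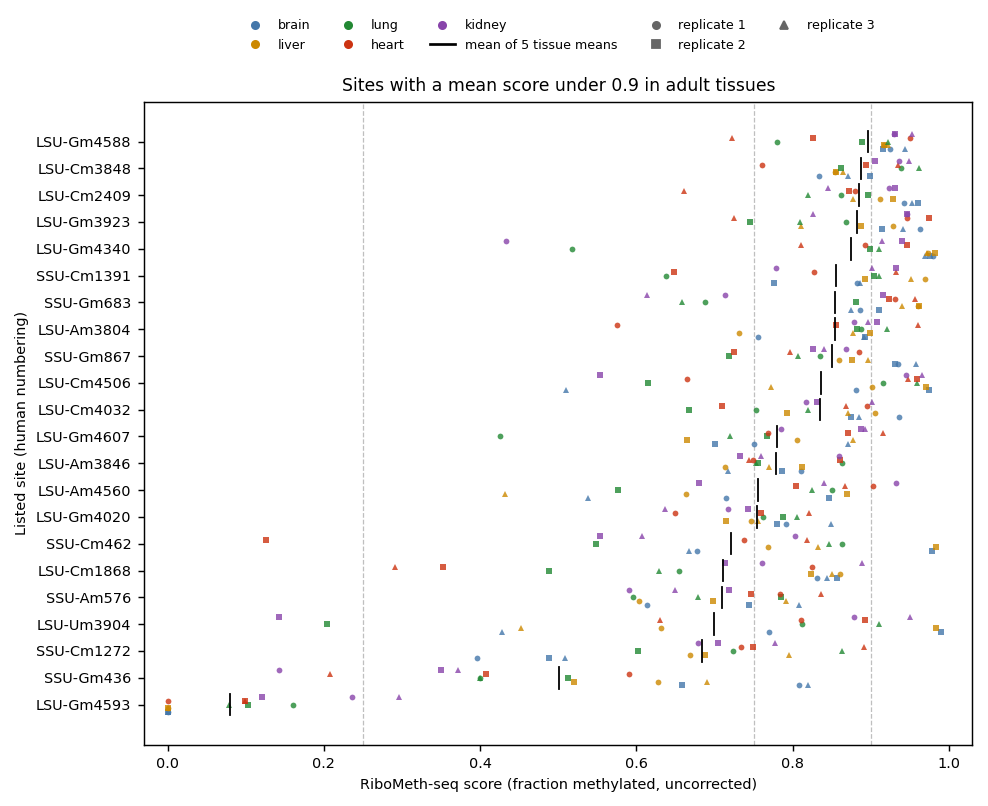
Score of each of the 15 adult libraries (x axis, fraction methylated) at the 22 sites with an adult mean under 0.9 (y axis), coloured by tissue and shaped by replicate number. Black bars mark the mean of the 5 tissue means and dashed lines the bounds of 0.25, 0.75 and 0.9. SSU-Gm436 spans 0.142 to 0.820, with brain highest, and LSU-Um3904 spans 0.142 to 0.990, with libraries of one tissue far apart.

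SSU-Gm436, the 18S site guided by SNORD100, was the partly methylated site with the widest range of tissue means. Its scores were 0.808, 0.658 and 0.820 in brain, and 0.628, 0.520 and 0.690 in liver. They were 0.399, 0.513 and 0.40 in lung, 0.590, 0.407 and 0.208 in heart, and 0.142, 0.35 and 0.372 in kidney. Brain and kidney did not overlap, while the heart libraries reached from the kidney scores up to the liver scores. The tissue means ran from 0.762 ± 0.0903 (SD, n = 3) in brain to 0.288 ± 0.127 in kidney, a range of 0.474. Limma's moderated F test over the 5 tissues called the site, with an adjusted p of 0.0244. The call was lost with library medians equalised (limma adjusted p 0.0634), after thinning to the shallowest adult library (0.130) and on the arcsine scale (0.111). The order was also seen within the library sets, where brain exceeded liver by 0.149 ± 0.103 (SE) and lung exceeded kidney by 0.149 ± 0.103. Neither of these differences was called, with adjusted p of 1 and 0.998 by limma. Number by number, brain minus liver was 0.180, 0.138 and 0.130, and kidney minus lung was -0.257, -0.163 and -0.0276. With the replicate number within a library set as a block, described below, their adjusted p were 0.234 and 0.0782, and an F test of both differences together called the site (limma adjusted p 0.0329). At E16.5 the same site averaged 0.179 over the 5 tissues, from 0.0161 in heart to 0.319 in brain. The adult mean score of unlisted G nucleotides of 18S rRNA had a median of 0.187 and a 95th percentile of 0.481. At SSU-Gm436 the E16.5 mean lay near that median. The adult kidney, heart and lung means lay below that percentile, and the brain and liver means above it.

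SSU-Cm1272 separated brain from the other tissues. Its brain scores were 0.396, 0.489 and 0.509, and the 12 libraries of the other tissues lay between 0.602 and 0.891. Brain averaged 0.464 ± 0.0604 (SD, n = 3) against 0.740 over the other 4 tissues, a difference of -0.275 ± 0.0970 (SE) that limma did not call (adjusted p 0.230). With the block the same difference had a standard error of 0.0550 and an adjusted p of 0.00330 by limma. Most of this comparison lies across library sets, where the block understates the standard error, as described below. Against liver alone, which shares the set of brain, the difference was -0.253 ± 0.123, with an adjusted p of 1 without the block and 0.170 with it. The brain mean was close to the E16.5 brain mean of 0.461, and the other 4 adult means of 0.717 to 0.791 stood above E16.5 means of 0.394 to 0.570.

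SSU-Am576, guided by SNORD93, had a middle level in every adult tissue. Tissue means ran from 0.653 ± 0.0640 (SD, n = 3) in kidney to 0.789 ± 0.0449 in heart, and single libraries from 0.591 to 0.836. All 5 tissues overlapped one another in the order of their libraries except heart and kidney, whose libraries lay at 0.747 to 0.836 and 0.591 to 0.719. Limma's F test did not call it (adjusted p 0.482), but did with the block (adjusted p 0.0127). That F test reaches across library sets, where the block understates the standard error. The F test of the differences within library sets did not call the site with the block. SSU-Am576 was also the single site that had scored above 0.9 at E16.5, at 0.938, and was in the partly methylated class in adults.

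The remaining 3 sites of the class differed widely between libraries of one tissue or between the 2 kinds of read end. LSU-Um3904, assigned in human to SNORD52, scored 0.770, 0.990 and 0.428 in brain and 0.632, 0.983 and 0.453 in liver. In lung it scored 0.812, 0.204 and 0.910, in kidney 0.879, 0.142 and 0.95, and in heart 0.811, 0.892 and 0.630. The second library was the highest in brain and liver and the lowest in lung and kidney. Its spread between replicates, a pooled SD of 0.322, was the widest of all sites and exceeded the range of its tissue means, 0.136. From 5' read ends alone its adult mean was 0.954, from 3' ends alone 0.538, and the authors' deposited table gives a corrected adult mean of 0.947.

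LSU-Cm1868, assigned in human to SNORD48, was steady in brain (0.831, 0.857 and 0.844) and liver (0.860, 0.824 and 0.85). It was lower in lung (0.654, 0.488 and 0.628), and in heart 1 library at 0.825 stood far from those at 0.352 and 0.291. Kidney scored 0.760, 0.713 and 0.889. On this uncorrected score the F test missed the threshold (limma adjusted p 0.170). With the authors' correction rebuilt per library, the F test and the contrast of lung with the other 4 tissues called the site. The authors' deposited table corrects the heart mean from 0.489 to 0.806 and leaves the other 4 tissues as they were, so the corrected adult mean is 0.774, just above the class.

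SSU-Cm462, which the snoRNA SNORD14 guides, held 1 heart library at 0.126 beside others at 0.737 and 0.819. The highest scores, 0.978 and 0.984, were the second brain and second liver libraries. From 5' read ends alone its adult mean was 0.980, and from 3' ends alone 0.678, and the authors did not correct it in adults. Without the second heart library its mean left the class, which then held 5 sites. In the authors' deposited means 4 sites stayed in the class: SSU-Gm436, SSU-Cm1272, SSU-Am576 and SSU-Cm462.

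**Figure D2:**
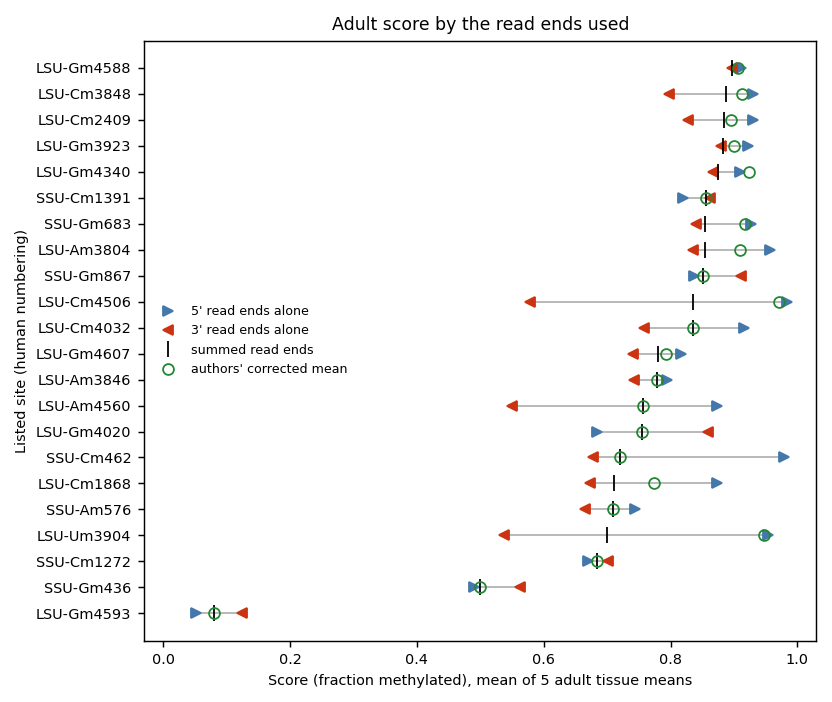
Adult mean score (x axis, fraction methylated) of the 22 sites under 0.9 (y axis), from 5' read ends alone, 3' read ends alone, both summed, and in the authors' deposited corrected means. LSU-Um3904 lies at 0.954, 0.538, 0.699 and 0.947 in these 4 readings, whereas SSU-Gm436 lies between 0.489 and 0.563.

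Across the class, the median pooled replicate SD was 0.132, against 0.0229 at the sites of 0.9 or more. The SD from counting alone had medians of 0.0131 and 0.00449 in the same classes. This counting error treats each read end as an independent molecule, which amplified reads without molecular identifiers need not be. From 5' ends alone the class held 4 sites, of which 3 were among the 6 named above, and from 3' ends alone it held 10, all 6 among them.

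LSU-Gm4593, the 28S site guided by SNORD78, was the one listed site below 0.25. All 3 brain and all 3 liver libraries scored 0. Lung scored 0.16, 0.104 and 0.0790, heart 0, 0.10 and 0.10, and kidney 0.235, 0.120 and 0.296. Its adult mean of 0.0795 was reached or passed by 73.6% of the unlisted G nucleotides of 28S rRNA, whose median was 0.187 and 95th percentile 0.529. The kidney mean of 0.217 ± 0.0892 (SD, n = 3) lay between that median and percentile, and the means of the other 4 tissues lay below the median. Limma's F test called it (adjusted p 0.0103), as did the contrast of kidney with the mean of the other 4 tissues, 0.172 ± 0.0360 (SE), with an adjusted p of 0.00361. That contrast lost the call without kidney library 1 (adjusted p 0.0530) or library 3 (0.133, adjusted p 0.147), and from 5' ends alone, where it was 0.0964 (limma adjusted p 0.648). The kidney and lung libraries overlapped, and their difference of 0.103 ± 0.0456 was not called (limma adjusted p 0.584, and 0.170 with the block). Scores of brain and liver sit at the floor of the score and have no spread, which lowers the pooled spread behind these tests. At E16.5 the site averaged 0.521.

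Set beside E16.5, 16 sites had been at 0.25 to 0.75 in the embryonic tissues. Of these, 4 remained in that class in adults, 7 lay at 0.75 to 0.9, 4 at 0.9 or more, and 1, LSU-Gm4593, below 0.25. SSU-Am576 entered the class from above and SSU-Gm436 from below. Of 32 sites at 0.75 to 0.9 at E16.5, 24 were at 0.9 or more in adults, and of 59 sites at 0.9 or more, 58 remained there. No test was made of these moves, since the classes rest on the score, and in each of the 5 tissues the adult and the E16.5 libraries belong to different inferred sets. The classes also use uncorrected scores. At E16.5 the authors corrected 24 sites in lung, 17 in liver, 16 in kidney, and 4 each in brain and heart. In adults they corrected 17 in heart and 4 or 5 in each other tissue. At LSU-Am1313 the E16.5 liver mean was corrected from 0.768 to 0.975. The third E16.5 lung library held only 463388 read ends.

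Between the 15 sites at 0.75 to 0.9, the tissue with the lowest uncorrected score varied. LSU-Gm4607 had the widest range of tissue means, 0.218, from 0.637 in lung to 0.855 in kidney, and LSU-Gm4340 followed with 0.214, from 0.763 in kidney to 0.976 in liver. SSU-Gm683 had a range of 0.212, from 0.742 in lung to 0.954 in liver, and LSU-Am4560 one of 0.203, from 0.654 in liver to 0.858 in heart. The authors corrected a tissue mean at the first 3 of these, and in the authors' deposited means their ranges were 0.155 at LSU-Gm4607, 0.0927 at LSU-Gm4340 and 0.0634 at SSU-Gm683. Lung was also lowest at SSU-Gm867 (range 0.154), LSU-Cm4032 (0.152) and LSU-Gm3923 (0.132), heart at LSU-Cm2409 (0.148) and SSU-Cm1391 (0.136), and kidney at LSU-Gm4020 (0.108). In the authors' deposited means the ranges of LSU-Gm3923 and LSU-Cm2409 were 0.166 and 0.0938. On the uncorrected score none of the 14 tested sites of this class was called by limma's F test, and 1 had an unadjusted p under 0.05. At LSU-Gm4340 the first kidney and first lung libraries scored 0.433 and 0.517, and the other 4 libraries of these tissues 0.898 to 0.940.

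The moderated F test over the 5 tissues called 5 of 107 sites, 4.67% of those tested, and 13 sites had an unadjusted p under 0.05. Besides SSU-Gm436 and LSU-Gm4593 the calls were LSU-Cm2848, LSU-Um4468 and LSU-Um3797, all 3 above 0.9 on average. LSU-Um4468 and LSU-Um3797 lost the call with library medians equalised, both with an adjusted p of 0.676 by limma. SSU-Gm436 lost it there too, with a limma adjusted p of 0.0634. On the uncorrected score limma called none of the 19 tested sites that the authors had corrected in an adult tissue, and 2 of them had an unadjusted p under 0.05. With the block it called 6 of these 19 and 22 of the other 88. With the authors' correction rebuilt per library the F test called 7 sites, LSU-Cm1868 and SSU-Gm683 of these 19 among them. Of the 36 corrected adult means 33 could be rebuilt. The kidney mean of SSU-Gm683 could not, and stayed uncorrected in that fit. Over all tested sites the range of the tissue means had a median of 0.0529. It was under 0.05 at 49 sites, at least 0.1 at 28 and at least 0.2 at 9. By rRNA the test called 1 of 40 sites in 18S, 4 of 65 in 28S and 0 of 2 in 5.8S rRNA, where limma gave 0 sites an unadjusted p under 0.05. It called 1 of 22 sites with another listed site within 2 nucleotides and 4 of 85 without. By nucleotide it called 0 of 33 A, 1 of 22 C, 2 of 32 G and 2 of 20 U, with 2 A sites at an unadjusted p under 0.05 by limma. The block gave 11 calls for 18S rRNA, 17 for 28S and none for 5.8S, 7 with a listed neighbour and 21 without, and 8 A, 4 C, 10 G and 6 U. It then also called 3 of the 14 tested sites at 0.75 to 0.9. These block counts come from an F test across library sets, where its p-values are too small, as described below. The narrowest ranges were those of LSU-Gm2351 (0.00328, all libraries from 0.990 to 0.998), LSU-Am2388 (0.00624) and LSU-Gm3606 (0.00760).

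**Figure D3:**
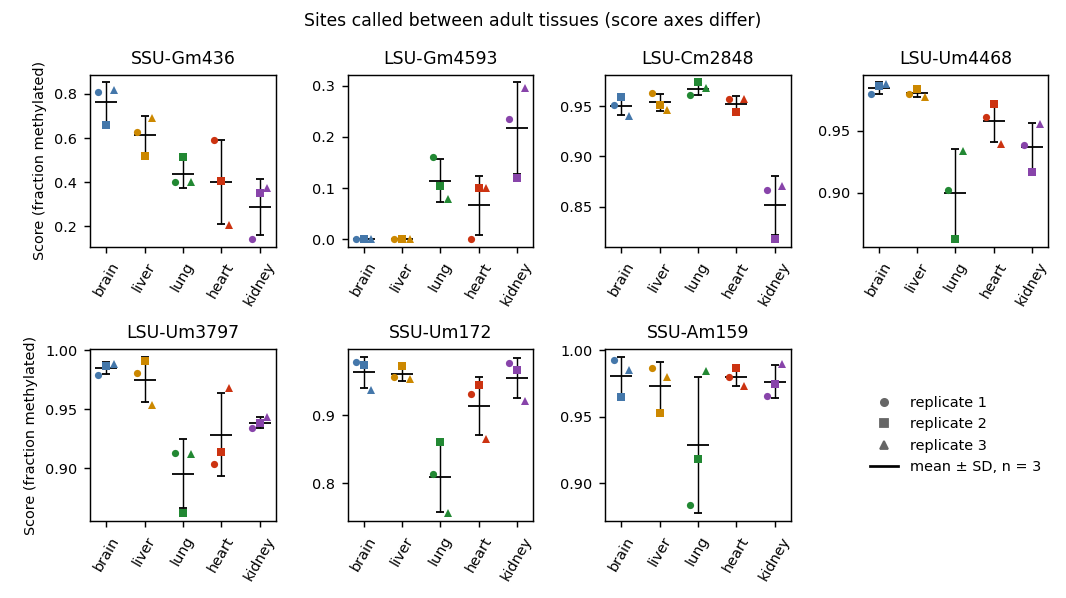
Score (y axis, fraction methylated, with a separate range in each panel) of each adult library at the 7 sites called by the F test or by a contrast of one tissue with the other 4, by tissue (x axis), with the mean ± SD of 3 libraries. Kidney stands alone at LSU-Cm2848, with libraries of 0.818 to 0.870 below 0.941 to 0.974 in the others, and lung lies lowest at SSU-Um172.

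Kidney stood apart most clearly at LSU-Cm2848, which SNORD50 snoRNAs are known to guide in human. The kidney scores of 0.866, 0.818 and 0.870 all lay below those of the 12 other libraries, which ran from 0.941 to 0.974. The kidney mean was 0.852 ± 0.0292 (SD, n = 3), the mean of the other 4 tissues 0.956, and the difference -0.104 ± 0.0110 (SE), with an adjusted p of 8.95e-08 by limma. Within its own library set, kidney minus lung was -0.116 ± 0.0138, with an adjusted p of 1.11e-06, and the same-numbered differences were -0.0946, -0.156 and -0.0974. At E16.5 kidney had averaged 0.927 at this site, within the 0.907 to 0.961 of the 5 embryonic tissues. From 3' read ends alone, where the spread is wider, the kidney difference was of like size, -0.101, and was not called. LSU-Gm2863, which the same snoRNAs are also listed to guide in human, averaged 0.912 ± 0.0254 in kidney and 0.943 to 0.974 in the other tissues, and was not called by the F test (limma adjusted p 0.999). Its same-numbered kidney minus lung differences were -0.0197, -0.0385 and -0.0362, and from 5' ends alone limma called it lower in kidney than in the other 4 tissues, by -0.0689 ± 0.0177 (SE; adjusted p 0.0272). No other setting, the main fit included, called that contrast at LSU-Gm2863.

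In the contrast of kidney with the mean of the other 4, limma called 2 sites (1.87% of 107), LSU-Cm2848 lower and LSU-Gm4593 higher, and 5 had an unadjusted p under 0.05. The 3 kidney libraries lay beyond all 12 others at 2 sites (1.87%), LSU-Cm2848 and SSU-Um354. SSU-Um354, guided by SNORD90, scored 0.966 to 0.973 in kidney, above the 0.961 that the other libraries reached at most, and its difference was not called (limma adjusted p 0.951). The direct comparison of kidney with lung called 1 site, LSU-Cm2848 (0.935%), with 8 at an unadjusted p under 0.05.

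Lung had the lowest mean at 44 of the 107 sites and the highest at 3, and its difference from the mean of the other tissues was below 0 at 83 sites. Limma called 5 sites in lung (4.67%), 4 lower and 1 higher, with 15 at an unadjusted p under 0.05. SSU-Um172 scored 0.814, 0.860 and 0.756 in lung, all below the 0.865 to 0.978 of the 12 other libraries, a difference of -0.138 ± 0.0344 (SE; adjusted p 0.0234). SSU-Am159, assigned in human to the same SNORD45 family as SSU-Um172, and whose window above overlaps that of SSU-Um172, scored 0.883, 0.918 and 0.984 in lung. Its difference was -0.0489 ± 0.0130 (adjusted p 0.0234), and without the first lung library it was -0.0262, with an adjusted p of 0.803 by limma.

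LSU-Um4468 scored 0.902, 0.863 and 0.934 in lung, against means of 0.937 to 0.985 in the other tissues, a difference of -0.0654 ± 0.0139 (limma adjusted p 0.00842). LSU-Um3797 scored 0.913, 0.861 and 0.912, a difference of -0.0614 ± 0.0166 (adjusted p 0.0234). LSU-Cm2848 was higher in lung by 0.0404 ± 0.0109 (adjusted p 0.0234), a contrast that includes the low kidney libraries among the other 4 tissues. The low median of the lung libraries moved with these results. With library medians equalised, the lung contrast called 2 sites, SSU-Um172 and LSU-Cm2848, and the differences at LSU-Um4468, LSU-Um3797 and SSU-Am159 were -0.0390, -0.0350 and -0.0225 with adjusted p of 0.299, 0.369 and 0.745 by limma. Without lung library 1, 2 or 3 the contrast called 0, 0 and 2 sites. From one kind of read end some of the lung differences were near 0: that of LSU-Um4468 was 0.000948 from 3' ends, and those of LSU-Um3797 and SSU-Am159 were -0.000810 and -0.000709 from 5' ends. SSU-Um172 differed by -0.0305 from 3' ends and was not called (limma adjusted p 0.852).

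**Figure D4:**
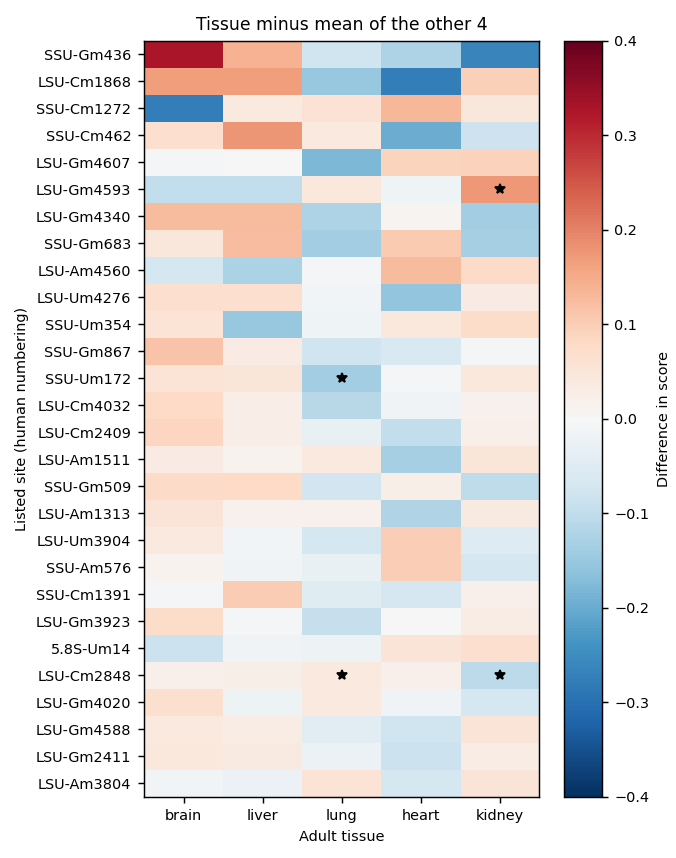
Difference in uncorrected score between each adult tissue and the mean of the other 4 (colour), at the 28 tested sites (y axis) whose tissue means spanned at least 0.1, with stars where limma's adjusted p was under 0.05. The strongest colours are brain at SSU-Gm436 (0.327) and SSU-Cm1272 (-0.275) and heart at LSU-Cm1868 (-0.277, but 0.0393 with the authors' deposited corrected means), and the stars fall on lung and kidney.

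Brain had the highest mean at 56 of the 107 sites, and its difference from the other tissues was above 0 at 87 sites. Limma called none (0%), with 10 sites at an unadjusted p under 0.05, and 1 to 7 sites under some of the other settings. The nearest was SSU-Gm436, higher by 0.327 ± 0.0814 (SE), with an adjusted p of 0.0507. The 3 brain libraries lay beyond all 12 others at 8 sites (7.48%). They were higher at SSU-Gm867 (0.931 to 0.958 against at most 0.896) and LSU-Cm2409 (0.943 to 0.960 against at most 0.931). They were also higher at SSU-Um1804, LSU-Am2350, LSU-Um2402 and LSU-Cm3866, by narrow gaps near a score of 1. The lowest brain score and the highest other score were 0.9902 and 0.9901 at SSU-Um1804, and 0.9916 and 0.9902 at LSU-Am2350. These scores were 0.9901 and 0.9885 at LSU-Um2402, and 0.9887 and 0.9858 at LSU-Cm3866. The brain libraries were lower at SSU-Cm1272 and at 5.8S-Um14, where brain scored 0.828 to 0.875 against 0.892 to 0.977. Liver, from the same library set as brain, had the highest mean at 18 sites, and its difference from the other tissues was above 0 at 82 sites. The brain and liver libraries also had the highest median scores. With library medians equalised, limma called no site in brain, and 4 had an unadjusted p under 0.05. The direct difference of brain and liver called no site (0%), with 1 at an unadjusted p under 0.05.

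Liver against the mean of the other 4 tissues called no site by limma (0%), with 6 at an unadjusted p under 0.05. The smallest adjusted p was 0.547, at SSU-Um354, where the liver scores of 0.75, 0.808 and 0.809 lay below the 0.831 to 0.973 of the 12 other libraries. This was the single site of that kind in liver (0.935%). Other settings called this difference: in the adult libraries alone it was -0.152 ± 0.0221 (SE; adjusted p 0.000857), and limma also called it after thinning and on the arcsine scale. Brain minus liver at the site, 0.165, was called in the adult libraries alone (adjusted p 0.00423) and after thinning (0.00931). Its liver mean was 0.789 ± 0.0338 (SD, n = 3) and the brain mean 0.954 ± 0.00990. Liver had also been lowest at this site at E16.5, at 0.222.

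Heart against the other 4 tissues called no site by limma (0%), with 7 at an unadjusted p under 0.05 and a smallest adjusted p of 0.261, and at no site did its 3 libraries lie beyond all others (0%). Heart had the lowest mean at 31 sites. Its median replicate SD was the widest of the 5 tissues, at 0.0325 against 0.0119 in brain, and heart library 3 was the shallowest of the adult libraries. These means and SDs are of uncorrected scores. The authors corrected the heart mean upward at 17 sites, against 4 or 5 corrected sites in each other adult tissue. Leaving out the first heart library gave 2 calls and leaving out the second gave 1.

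**Figure D5:**
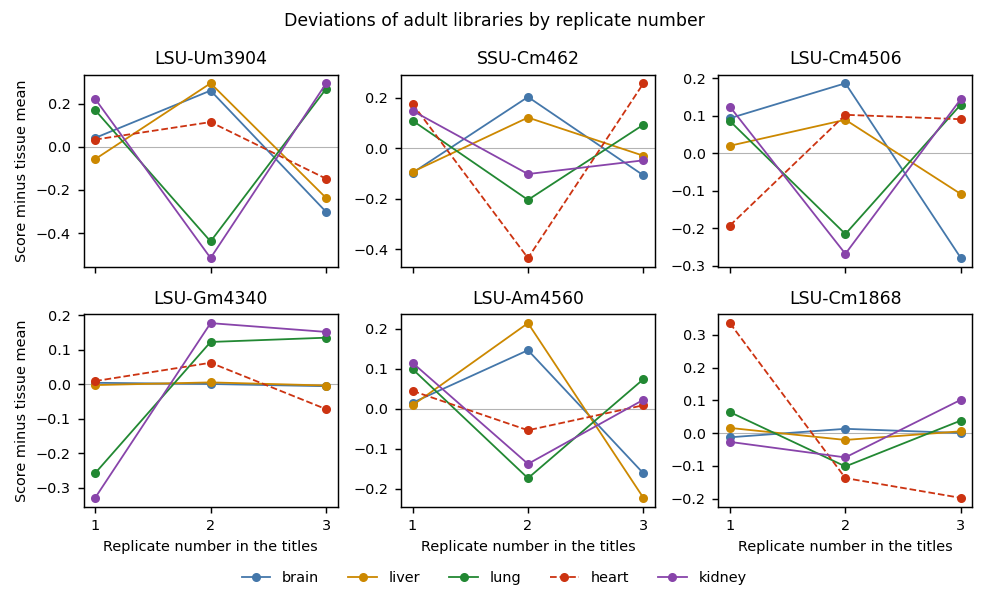
Deviation of each adult library from its tissue mean (y axis, score units) by the replicate number in the sample titles (x axis) at the 6 sites with the widest replicate spread, with 1 line per tissue, dashed for heart. Brain and liver lines run together and lung and kidney lines run together, as at LSU-Um3904, where the second library is high in the first pair and low in the second.

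Replicates of different tissues deviated together by number within a library set. Over the tested sites, the deviations of same-numbered libraries from their tissue means correlated with r between 0.765 and 0.905 in all 6 pairs of one set (brain with liver, lung with kidney). These correlations run across sites, which are not independent replicates. The 12 differently numbered pairs of one set had r of at most 0.0374. Deviations of 3 libraries from their mean sum to 0, so these low values follow in part from the same-numbered pairs. Heart, with no adult partner, was paired in the third set with the E16.5 kidney, liver and lung libraries, where all 9 same-numbered pairs had r of 0.614 to 0.799 and the 18 others at most -0.0937. When the replicate number within a set was added to the model as a block, which leaves every difference as it was and takes this shared part out of the spread, the F test called 28 sites (26.2%), the 5 named above among them. The contrasts then called 7 sites in brain (6.54%), 0 in liver (0%), 14 in lung (13.1%), 10 in heart (9.35%) and 5 in kidney (4.67%). Differences between the sets themselves remain in these contrasts. The shared part cancels in a difference within a set. Across sets it stays in the difference but is left out of the standard error, so p-values with the block are too small there. The F test, the contrasts of a tissue with the others and every heart comparison reach across sets.

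An F test of brain minus liver and kidney minus lung together called 1 site (0.935%), LSU-Cm2848, and 4 with the block (3.74%), SSU-Gm436, SSU-Am159, LSU-Cm2848 and LSU-Gm4607. Kidney minus lung alone called 5 sites with the block (4.67%). LSU-Cm2848 was lower in kidney, and SSU-Um172, SSU-Am159, LSU-Cm1868 and LSU-Gm4607 were higher. At SSU-Um172 the same-numbered differences were 0.163, 0.106 and 0.165 (0.144 ± 0.0365, SE; limma adjusted p 0.0199). At LSU-Gm4607 they were 0.360, 0.121 and 0.173 (0.218 ± 0.0494; adjusted p 0.0120), and at LSU-Cm1868 0.106, 0.225 and 0.260 (0.197 ± 0.0551; adjusted p 0.0387). At SSU-Am159 they were 0.0822, 0.0563 and 0.00510, a mean of 0.0479 ± 0.0112 (adjusted p 0.0120), so that the third pair differed little. Brain minus liver, the other pair within a set, called no site with the block (0%), with 3 at an unadjusted p under 0.05.

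In brain the block called SSU-Gm436 (limma adjusted p 1.83e-06), LSU-Cm1868, LSU-Um2824, LSU-Gm3771 and LSU-Um4468 higher. It called SSU-Cm1272 and LSU-Gm4593 lower, the latter with all brain scores at 0. The brain difference at LSU-Cm1868 includes the uncorrected heart mean, and was 0.0869 with the authors' deposited means. In heart the block called SSU-Am576 higher and 9 sites lower, among them LSU-Cm1868 (-0.277, limma adjusted p 0.000148). Both lists lie largely across library sets and carry the limit given above. The heart mean of LSU-Cm1868 is one that the authors corrected, as given above. In the authors' deposited table the heart means of LSU-Am1313, LSU-Am1511 and LSU-Am1521, also among the 9, are corrected from 0.842, 0.811 and 0.920 to 0.972, 0.977 and 0.977. With the authors' deposited means in all 5 tissues, heart minus the mean of the other 4 turned in direction at these 4 sites, to 0.0393 at LSU-Cm1868, 0.00827 at LSU-Am1313, 0.0318 at LSU-Am1511 and 0.00650 at LSU-Am1521.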

How the data were processed

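Whole-cell RNA of 33 samples was read by RiboMeth-seq after alkaline breakdown and gel purification of short fragments, on an Ion Proton instrument, per the labels' protocols. Bowtie2 2.3.4.1 and cutadapt 2.0 are listed, without roles, per the submitters' processing notes. The rRNA reference is not given in the sources used here. For each of 6878 rRNA nucleotides the authors deposited counts of 5' ends, of 3' ends and of both per library, and a fraction methylated, per the file headers. A further table gives the authors' deposited mean score per group at 108 sites, after a barcode correction that altered 36 of 540 adult means at 20 sites. The column headers of every sheet repeat 1 group's sample names, so groups were taken from sheet names. Sheet means equalled the named group's mean in the table of means at 84 to 104 of 108 sites within 1e-05, and any other group's at 2 at most.

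The fraction was rebuilt from counts as 1 minus the summed ends over a weighted mean of 6 neighbours on each side (weights 1 to 0.5, values below 0 set to 0), with a largest difference of 5e-10 at the sites. Uncorrected scores per library were tested with limma 3.58.1 in R 4.3.3, in 1 model over all 33 libraries with a mean per group and moderated variances following the mean score. An F test over the 5 adult tissues, 5 contrasts of a tissue with the mean of the other 4, which share all 15 libraries and are not independent, and 2 differences within library sets had p-values adjusted over the 107 sites (Benjamini-Hochberg), with calls at an adjusted p under 0.05. All were two-sided. Other steps ran in Python 3.11.15 (pandas 2.3.3, matplotlib 3.10.9, numpy 2.4.6, scipy 1.17.1). The fit was also run on simulated data with independent noise in each library. That run does not cover the deviations that same-numbered libraries of a set share.

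The series' design text calls the 3 libraries of a group biological replicates. Adult replicates did not repeat one file's counts, with chi-square over its degrees of freedom of at least 48.75, which does not tell separate animals from repeat libraries of one RNA. Whether replicate numbers pair libraries was checked by correlating deviations from tissue means. Over all 30 same-numbered adult pairs, 10 had r above 0.1, and within inferred library sets all 6 did, against 0 of 12 differently numbered pairs, as did all 9 pairs of heart with E16.5 libraries of its set, so the numbers were taken to pair libraries within a set. The differently numbered pairs are no separate check, since deviations from a mean of 3 libraries sum to 0. The block of number within set was chosen after seeing the data, and its p-values are too small for differences across sets.

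Members, lists and bounds were chosen with earlier results of these data known. Named were sites called by the F test, a contrast or a pair, up to 10 per contrast, all sites with an adult mean under 0.75, the 10 widest ranges at 0.75 to 0.9, 2 sites on each side of a bound, and the 3 narrowest ranges. Sites beyond the 12 other libraries of a tissue and those called under the block were named after their values were seen, as was LSU-Gm2863. Lists by rRNA, nucleotide, neighbouring site and correction were described by counts. Lists by snoRNA host gene were planned and not made, since the tables used here name no guides, and guides named in the text are background knowledge.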

Additional observations from a re-analysis of the deposited data

Results flagged for a closer look

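Outside the listed sites, 11 nucleotides that lay at least 20 nucleotides from an rRNA end had an adult mean score of 0.75 or more. All unlisted nucleotides at that distance, these 11 included, serve as the background: over the 6611 of them the median adult mean was 0.132 and the 95th percentile 0.489. Positions are those of the mouse rRNA in the deposited tables. In 18S rRNA, U1627 scored 0.7596. In 28S rRNA, 2 close groups stood out, C662 at 0.8644, C663 at 0.8619 and G667 at 0.7721, and G687 at 0.7978 and G688 at 0.7988. C771 scored 0.7875 and G4479 scored 0.8169. In 5.8S rRNA, 3 adjacent nucleotides scored 0.791 (G133), 0.8889 (G134) and 0.8717 (C135). From 3' read ends alone the scores of C662, C663, G667, G687 and G688 were 0.405, 0.577, 0.525, 0.194 and 0.397, against 0.828 to 0.939 from 5' ends alone, so these 5 rest on 5' ends. U1627, C771 and G4479 scored at least 0.7149 from either kind of end. G4479 averaged 0.910 in brain and 0.905 in liver, and 0.713 in lung, 0.741 in heart and 0.816 in kidney. No cause was tested, and none of these nucleotides is taken here as a methylation site.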

How the results depend on the processing

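Each test was recomputed with 15 leave-one-library-out fits and at least 12 other settings. Counts of called sites are given by setting, and their causes were not tested unless the setting itself holds fewer sites or libraries. The F test called 5 sites, 2 with equal library medians, 10 from 5' ends alone, 0 from 3' ends alone, 13 in the 15 adult libraries alone, 3 after thinning to the shallowest adult library, 28 with the block of replicate number within library set, and 1 (LSU-Cm2848) when restricted to differences within library sets. Without 1 library it called 2 to 6, with 2 when the first kidney library was left out. Brain called 0 sites, 2 from 5' ends, 1 with the rebuilt barcode-corrected score, 1 with a coverage minimum of 50, 5 in adults alone, 3 on the arcsine scale, 2 with the replicate block and 7 with the set block, and 0 to 1 without 1 library. Liver called 0 sites, 3 from 5' ends, 1 in adults alone, 1 after thinning and 2 on the arcsine scale, and 0 without any 1 library. Lung called 5 sites, 2 with equal medians, 0 from 3' ends, 0 after thinning and 14 with the set block, and 0 to 6 without 1 library. Heart called 0 sites, 1 from 5' ends and 10 with the set block, and 0 to 2 without 1 library. Kidney called 2 sites, 4 from 5' ends, 0 from 3' ends and 5 with the set block, and 1 to 3 without 1 library, with 1 when the first or the third kidney library was left out. Brain minus liver called 0 sites, 1 in adults alone and 1 after thinning, and 0 without any 1 library. Kidney minus lung called 1 site, 3 from 5' ends, 0 from 3' ends, 2 in adults alone, 2 on the arcsine scale, 2 with the replicate block and 5 with the set block, and 1 to 2 without 1 library, with 2 when the third lung library was left out. The plain replicate block, with the number shared across all groups, otherwise left the F test at 6 calls, lung at 7 and kidney at 2. The class of partly methylated sites held 6, 10 from 3' ends and 21 with bounds of 0.1 and 0.9, and 5 to 7 without 1 library. LSU-Um4468 turned from -0.0654 to 0.000948 in lung from 3' ends alone. LSU-Cm2848 kept its call in kidney under 26 of 27 alternatives and was not called from 3' ends alone. SSU-Gm436 kept its F call under 20 of 28 and LSU-Gm4593 and LSU-Um4468 each under 23 of 28, and LSU-Um3797 under 15 of 28. Among the adult libraries depth was lowest in the third heart library, with a neighbouring mean count of 17.2 at LSU-Cm3848.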
